A study of Mus musculus with 3 samples.

Results

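The insulin-like growth factor (IGF) genes described here are Igf1, which encodes a secreted ligand, the receptor genes Igf1r and Igf2r, and 5 genes for secreted binding proteins, Igfbp2, Igfbp3, Igfbp4, Igfbp5 and Igfbp7. These 8 genes, of 32285 in the files, were chosen by name, and their level was followed across cell classes and stages. They were measured by droplet single-cell RNA sequencing in palatal shelves, the paired outgrowths that meet above the tongue and fuse into the secondary palate. Shelves were taken from C57BL/6J embryos of wild-type genotype, with no transgene, mutation or treatment in any group. The stages were embryonic day (E) E13.5, then E14.5 and then E15.5. Each stage is 1 library made from methanol-fixed cells of 3 pooled embryos. There are therefore no replicate libraries of a stage, and differences between stages and between libraries cannot be told apart.

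IGF1 and IGF2 are small growth factors that signal mainly through the receptor tyrosine kinase encoded by Igf1r, which drives growth and survival through the PI3 kinase and MAP kinase routes. The receptor encoded by Igf2r, also the cation-independent mannose 6-phosphate receptor, takes IGF2 up and delivers it to lysosomes. IGF binding proteins hold the ligands outside the cell, where they can block, store or deliver them, and proteases of the pappalysin family release the ligand by cutting the binding protein. In skeletal tissue IGF signalling is known for its role in the growth of cartilage and bone.

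Where 3 values follow each other they are in the order of the stages. The files held 4236, 2079 and 3113 cell barcodes, with 11472663, 5293977 and 8313677 unique molecular identifiers (UMIs, counts of captured transcripts). After filtering 3583, 1750 and 2584 cells were left, and the libraries shared 1 to 3 barcodes in pairs. Cells were assigned to a class by counting detected markers, 10 for each of 14 classes, of which 139 of 140 were found. No IGF gene is a marker. The E13.5 library stood apart. Neuronal cells, whose 10 markers were all detected, made up 54.0% of it and 7.49% and 7.62% of the later libraries. The mesenchymal lineage, taken as the mesenchymal, osteogenic and chondrogenic classes together, held 408, 959 and 1461 cells in order of stage. All 10 mesenchymal markers were detected in the mesenchymal cells of each library. The class was gated less firmly at E13.5, where 166 of 273 cells had only 2 of their markers or led by 1 marker, against 239 of 689 and 340 of 1129 cells later. Epithelial cells numbered 112, 120 and 269, and the endothelial, mural, myeloid and glial classes held between 10 and 98 cells per library.

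Promoter sequence is shown for 3 binding protein genes whose level in epithelium was called different in the class test below, also with any library left out, Igfbp2 and Igfbp5 higher and Igfbp4 lower. Igfbp7, also lower there by the same measure, is described by its motif matches alone. Igfbp2 and Igfbp5 are also neighbours on chromosome 1, where they face each other with 5457 bases between their ends. The sequences are the 250 bases before the RefSeq start site in GRCm38.p6, 5′ to 3′ on the strand of the gene, without the 19 bases of the Igfbp5 window that GENCODE M21 places in its first exon. Capitals mark matches, on either strand, to the TATA box letters TATAAA, the GC box letters GGGCGG or the CCAAT box letters CCAAT.
Igfbp2, chr1:72824230-72824479, plus strand: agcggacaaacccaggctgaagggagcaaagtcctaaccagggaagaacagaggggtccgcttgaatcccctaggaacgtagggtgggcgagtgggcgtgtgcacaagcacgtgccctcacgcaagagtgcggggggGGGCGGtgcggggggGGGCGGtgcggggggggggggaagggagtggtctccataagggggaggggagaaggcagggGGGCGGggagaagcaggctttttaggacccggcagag
Igfbp5, chr1:72874885-72875115, minus strand: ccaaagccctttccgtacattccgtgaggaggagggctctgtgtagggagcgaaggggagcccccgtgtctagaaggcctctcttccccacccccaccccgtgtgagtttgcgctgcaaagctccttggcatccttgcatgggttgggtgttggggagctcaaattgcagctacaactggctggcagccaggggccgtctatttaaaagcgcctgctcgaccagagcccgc
Igfbp4, chr11:99040994-99041243, plus strand: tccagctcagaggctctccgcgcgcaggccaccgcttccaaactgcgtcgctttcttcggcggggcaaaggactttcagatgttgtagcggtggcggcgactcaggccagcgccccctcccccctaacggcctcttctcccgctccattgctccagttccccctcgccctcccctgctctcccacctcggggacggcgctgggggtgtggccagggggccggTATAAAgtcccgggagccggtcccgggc
The Igfbp2 window held 3 GC box matches, and the Igfbp5 window held none of the 3 motifs. The Igfbp4 window held a TATA box match whose first base lies 28 bases before the start. Among all 32851 RefSeq windows of the same length, 12.4% held TATAAA, 32.7% held GGGCGG and 33.8% held CCAAT. GC box matches also stood in the windows of Igf1r (2 matches), Igf2r (3 matches) and Igfbp7 (4 matches). The Igfbp3 window held none of the 3, and a further RefSeq start site of Igfbp2 held none either. The Igf1 window had 1 CCAAT match, and all of its 250 bases lie in annotated Igf1 exons of transcripts that start further upstream, so it is not shown. The E-box letters CANNTG occurred in 66.2% of all windows and in those of Igf1, Igf2r, Igfbp2, Igfbp3, Igfbp4 and Igfbp5. Matches of different motifs were counted separately where they overlapped. GC content was 69.2% for Igfbp4, 67.2% for Igfbp2 and 58.8% for Igfbp5, against a median of 52.4% over all windows.

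Levels are given as UMIs of a gene per 1000000 UMIs (CPM) of the cells of a class in a library. Classes were compared with edgeR's quasi-likelihood test on the 27 sums of 9 classes and 3 libraries. Each class was set against the unweighted mean of the other 8, with Benjamini-Hochberg adjustment over 12043 genes. A difference is a log2 difference ± SE from this fit, and called means an adjusted p below 0.05. The 3 libraries of a class are 3 stages, so the spread in this test includes the differences between stages. Of the 72 gene and class pairs 35 were called, 20 higher and 15 lower, where 14.3% of all 108387 pairs of genes and classes were called. Of the 35, 19 were called also without each library in turn, 11 higher and 8 lower. The median difference over all genes ran from -0.42 in mural to 0.29 in chondrogenic cells, and differences below are to be read against it.

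**Figure D1:**
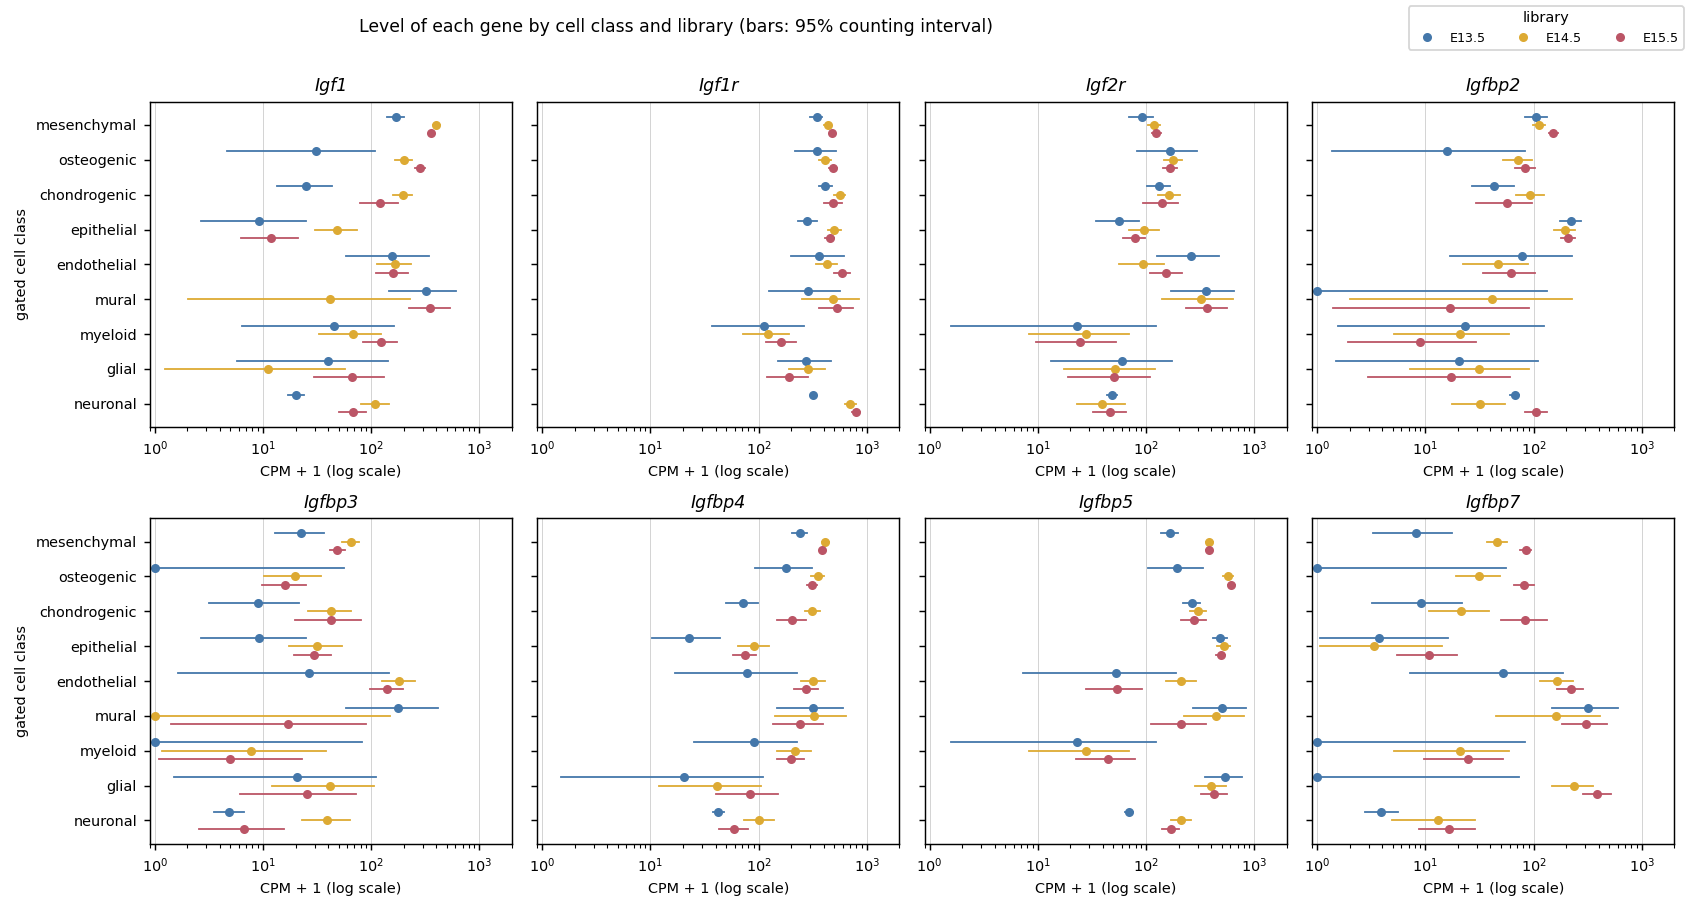
Level of each gene as CPM + 1 on a log scale (horizontal axes) in the 9 cell classes (vertical axes), with 1 point per library coloured by stage. Igf1 reached 399 CPM in mesenchymal cells and stayed at or below 47.5 CPM in epithelial cells, while Igfbp2 and Igfbp5 stood high in epithelial cells in all 3 libraries.

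Igf1 (chr10:87858265-87937042, plus strand) was highest in mesenchymal cells and lowest in epithelium by mean level over the libraries, though not in each library. In mesenchymal cells it stood at 169 CPM at E13.5, 399 CPM at E14.5 and 358 CPM at E15.5, from 118, 745 and 1177 UMIs. In epithelial cells it stood at 8.20, 47.5 and 10.9 CPM, from 3, 20 and 10 UMIs. The groups did not overlap, and every mesenchymal value lay above every epithelial one. The mesenchymal difference was 2.02 ± 0.25 (adjusted p = 1.53e-07) and the epithelial one -2.54 ± 0.44 (adjusted p = 4.05e-05). Both were called without each library in turn. The epithelial difference then ranged from -3.57 without E14.5 to -1.59 without E15.5.

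Bone-forming cells, in the osteogenic class, had Igf1 at 29.8, 200.1 and 281 CPM, and their difference of 1.04 ± 0.30 was called (adjusted p = 0.0166). It was called in 6 of 9 alternatives, and not without the E15.5 library (0.77), with DESeq2's Wald test (0.84) or with no library term (1.10). Cartilage cells stood at 24.2, 196 and 119.8 CPM. The E13.5 value was the lowest in both classes, and it rested on 2 UMIs in the osteogenic and 12 in the chondrogenic sum. Endothelial cells held a narrow range, 155, 165 and 157 CPM, and mural cells, which wrap small vessels, a wide one, 319.7, 40.4 and 352 CPM from 9, 1 and 22 UMIs. By mean level the order was mesenchymal, mural, osteogenic, endothelial, chondrogenic, myeloid, neuronal, glial and epithelial, and the ranges of all neighbours in this order overlapped. Neuronal Igf1 was lowest at E13.5 too, with 19.2, 108 and 67.1 CPM. Mesenchymal markers were also found in these classes, 8 to 10 of 10 in epithelial, 9 to 10 in neuronal and 2 to 8 in mural sums. Together they stood at 153, 299 and 306 CPM in epithelial, 176, 473 and 285 CPM in neuronal and 213, 1049.8 and 1567.5 CPM in mural sums, all lowest at E13.5. The part of carried-over mesenchymal transcripts in these levels was not tested.

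Igf1r (chr7:67952827-68233668, plus strand), the signalling receptor, was found in every class and library. Neuronal cells stood at 316 CPM at E13.5, 701 CPM at E14.5 and 792 CPM at E15.5, and myeloid cells at 111, 121 and 161 CPM. The neuronal difference was 0.89 ± 0.15 (adjusted p = 1.39e-05) and the myeloid one -1.62 ± 0.23 (adjusted p = 1.16e-06), both called without each library in turn. Neuronal cells led the classes at E14.5 and E15.5 only. At E13.5 their 316 CPM lay below the 411 CPM of chondrogenic and the 341 CPM of mesenchymal cells. Myeloid values lay below those of all the other 8 classes in all 3 libraries. Chondrogenic cells, with 411, 562 and 488 CPM, were higher by 0.57 ± 0.16 (adjusted p = 0.0177), a call that held in 4 of 12 alternatives. It was lost without E13.5 (0.44) or E14.5 (0.47), and the lowest value was 0.08 with at least 30 cells per sum. Glial cells, here the Schwann cell lineage that follows nerves, had 275, 285 and 189 CPM. Their difference of -0.80 ± 0.22 (adjusted p = 0.0233) was called in 8 of 11 alternatives, and not without E14.5 (-0.84) or E15.5 (-0.43). Epithelial cells held 281, 499 and 454 CPM and mesenchymal cells 341, 434 and 474 CPM. By mean level the order was neuronal, chondrogenic, endothelial, mural, mesenchymal, osteogenic, epithelial, glial and myeloid, and only the last pair of neighbours did not overlap. All 10 epithelial markers were detected in the neuronal sums and together stood at 114, 506 and 919 CPM there. Their part in neuronal levels was not tested.

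Igf2r (chr17:12682406-12769664, minus strand), the receptor that clears IGF2, had another order. Mural cells held 355, 323 and 368 CPM, from 10, 8 and 23 UMIs, above all other classes. Osteogenic cells held 164, 176 and 166 CPM, chondrogenic cells 131, 163 and 138 CPM and mesenchymal cells 90.0, 117 and 123 CPM. At the low end stood neuronal cells with 47.6, 38.4 and 45.7 CPM and myeloid cells with 22.2, 26.8 and 23.6 CPM. Values thus varied little between libraries within most classes, endothelial cells with 258.5, 92.8 and 153 CPM being the widest. In small classes they rest on few UMIs, as the E13.5 endothelial and myeloid sums held 38684 and 45049 UMIs of all genes. Neither steadiness nor spread is read from those classes. By mean level the order was mural, osteogenic, endothelial, chondrogenic, mesenchymal, epithelial, glial, neuronal and myeloid. Osteogenic overlapped endothelial cells, endothelial chondrogenic, mesenchymal epithelial and epithelial glial cells, and the other neighbours did not overlap. Myeloid cells had a difference of -2.12 ± 0.35 (adjusted p = 1.49e-05) and neuronal cells one of -0.99 ± 0.20 (adjusted p = 0.000213), called without each library in turn. The higher differences in mural (1.73 ± 0.27, adjusted p = 7.41e-05), osteogenic (0.97 ± 0.19, adjusted p = 0.000247) and chondrogenic cells (0.78 ± 0.19, adjusted p = 0.00475) each lost their call in some fit without a library. Without E15.5 they were 1.53, 0.92 and 0.76, none of them called. Without E14.5 the osteogenic difference was 0.86 and the chondrogenic one 0.61, also not called. Airn, a noncoding gene that overlaps Igf2r on the other strand, was among the 3 genes whose pattern over the 27 sums was most like that of Igf2r (Pearson r = 0.85). Whether the counting used strand is not given in the sources used here, so reads of the 2 genes cannot be told apart. The same limit holds for Igf1, which Igf1os overlaps on the other strand, and for Igfbp7, which Gm34648 and Polr2b overlap.

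**Figure D2:**
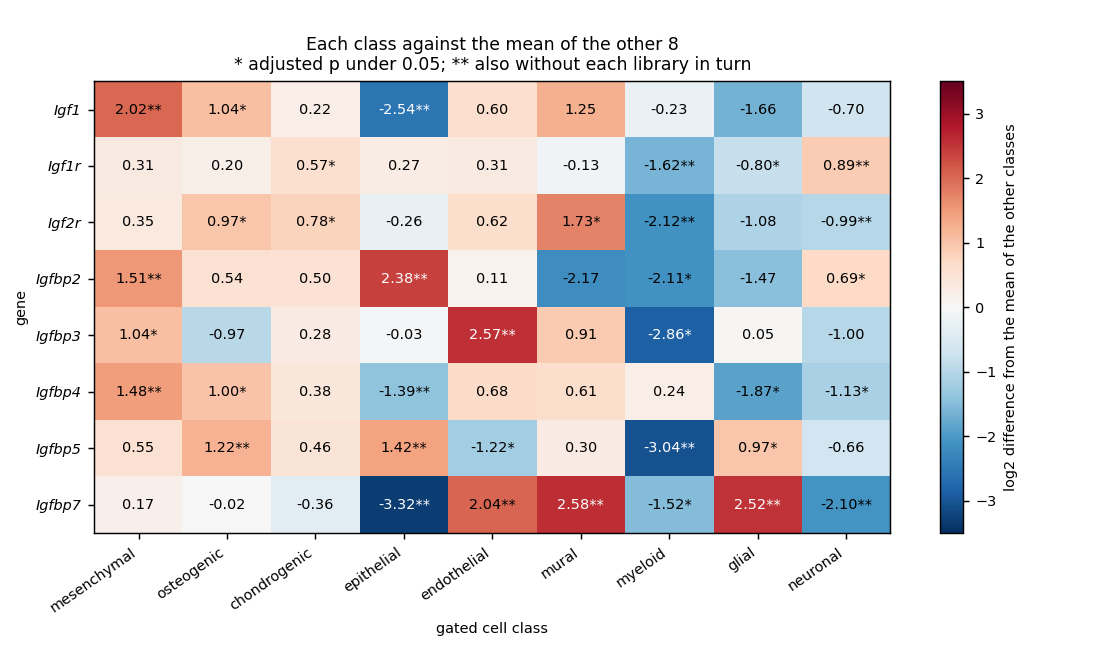
Log2 difference of each gene (rows) in each of the 9 classes (columns) against the mean of the other 8, in colour. A star marks an adjusted p under 0.05 and a double star one that held also without each library in turn, as for Igf1 in mesenchymal (2.02) and Igfbp2 in epithelial cells (2.38).

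Among the binding proteins, Igfbp2 (chr1:72824503-72852474, plus strand) was highest in epithelium. Epithelial cells stood at 219, 192 and 208 CPM, and mesenchymal cells at 104, 112 and 152 CPM. Every epithelial value lay above every value of the other 8 classes. Osteogenic cells had 14.9, 71.2 and 82.9 CPM and neuronal cells 66.1, 31.2 and 104.2 CPM. The epithelial difference was 2.38 ± 0.24 (adjusted p = 1.03e-09) and the mesenchymal one 1.51 ± 0.24 (adjusted p = 9.52e-06). Both were called without each library in turn. With sums of at least 30 cells, which keep 4 classes, the mesenchymal difference was 0.31 and was not called. Myeloid cells, with 22.2, 20.1 and 7.87 CPM, had a difference of -2.11 ± 0.59 (adjusted p = 0.00662), a call lost without E15.5 (-1.57) and with classes from clusters (-1.25). The neuronal difference of 0.69 ± 0.27 (adjusted p = 0.0475) was called in 2 of 12 alternatives, changed sign in 3 and was 0.55 without E13.5 and 0.10 without E15.5, not called in either.

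Igfbp5 (chr1:72857932-72874884, minus strand), the neighbour of Igfbp2, shared its high epithelial level. Epithelial cells stood at 484, 518 and 487 CPM, a narrow range. Osteogenic cells held 194, 568 and 613 CPM and glial cells 530, 396 and 427 CPM. At the low end myeloid cells held 22.2, 26.8 and 43.3 CPM, below all other classes. The epithelial difference was 1.42 ± 0.23 (adjusted p = 1.17e-05), the osteogenic one 1.22 ± 0.24 (adjusted p = 0.00028) and the myeloid one -3.04 ± 0.45 (adjusted p = 1.85e-06), all called without each library in turn. With at least 1000 genes per cell the osteogenic difference was 0.60 and was not called. Glial cells were higher by 0.97 ± 0.29 (adjusted p = 0.0337), which was 0.78 without E13.5 and 0.20 with at least 1000 genes per cell, not called in either. Endothelial cells, with 51.7, 211 and 52.5 CPM, had a difference of -1.22 ± 0.35 (adjusted p = 0.0259), which was -0.59 and not called without E15.5 and -2.32 without E14.5. In the endothelial sums 0, 7 and 2 of 10 osteogenic markers were detected, at 0, 819 and 127 CPM together, and 3, 9 and 7 of 10 mesenchymal markers, at 129, 639 and 297 CPM. The E14.5 sum was the high one for both lists and for Igfbp5, and their part in its level was not tested. Over the 27 sums the Pearson correlation of Igfbp2 and Igfbp5 was 0.24, as a description of points that share libraries.

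Igfbp4 (chr11:99041244-99054392, plus strand), a binding protein that a pappalysin cuts, had a pattern close to that of Igf1. Mesenchymal cells held 239, 413 and 387 CPM, and epithelial cells 21.9, 90.3 and 74.1 CPM. The groups did not overlap. The mesenchymal difference was 1.48 ± 0.17 (adjusted p = 4.10e-08) and the epithelial one -1.39 ± 0.24 (adjusted p = 3.85e-05), both called without each library in turn. Osteogenic cells, with 179, 349 and 309.6 CPM, were higher by 1.00 ± 0.20 (adjusted p = 0.000423), a call lost without E14.5 (0.98) and with no library term (1.05). Glial cells had a difference of -1.87 ± 0.37 (adjusted p = 0.000525), not called without E14.5 (-1.45), with classes from clusters (-0.95) or with no library term (-1.82). Neuronal cells had a difference of -1.13 ± 0.22 (adjusted p = 0.000111), not called without E15.5 (-0.77). Over the 27 sums Igf1 had a Pearson correlation of 0.78 with Igfbp4, and the next of the members for Igf1 was Igfbp3 with 0.48.

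Igfbp3 (chr11:7206086-7213923, minus strand), known as the main carrier of IGFs in blood, was highest on average in endothelial cells. These stood at 25.9, 180.4 and 139.9 CPM, from 1, 35 and 32 UMIs, against 21.4, 63.8 and 47.8 CPM in mesenchymal cells. At E14.5 and E15.5 the endothelial level was above that of the mesenchymal cells of the same library, and at E13.5 a single UMI allows no order. The endothelial difference was 2.57 ± 0.37 (adjusted p = 3.41e-06), called without each library in turn. The mesenchymal difference of 1.04 ± 0.31 (adjusted p = 0.0183) was called in 7 of 12 alternatives. It was not called without E14.5 (1.02) or E15.5 (0.76), with classes from clusters (0.68), with DESeq2's Wald test (0.94) or with no library term (1.00). Myeloid cells held 0, 1 and 1 UMIs. Their fitted difference of -2.86 ± 0.89 (adjusted p = 0.0155) depends on the prior count and gives no bound, and it was not called without E14.5 (-2.94) or E15.5 (-3.10). Of 10 pituitary markers 3 were detected in the endothelial sum of E15.5, at 861 CPM together against 25.9 and 41.2 CPM before, and their part in the levels there was not tested.

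Igfbp7 (chr5:77349240-77408041, minus strand), which encodes a more distant relative that is also known from vessel walls, marked vessel-associated and glial cells. Mural cells held 319.7, 162 and 304 CPM, from 9, 4 and 19 UMIs, and endothelial cells 51.7, 165 and 219 CPM. Glial cells held 0, 23 and 47 UMIs, equal to 0, 234 and 386 CPM, and against the 58.9 CPM that 3 UMIs would give at E13.5 the E15.5 level was at least 6.55-fold higher. In the glial sums chondrogenic markers together stood at 157, 508 and 599 CPM and mesenchymal markers at 98.2, 183 and 287 CPM. Both were lowest at E13.5, and their part in the glial levels was not tested. Epithelial cells stood at 2.73, 2.38 and 9.81 CPM, from 1, 1 and 9 UMIs. Vessel cells were thus above epithelium in every library. The glial difference was 2.52 ± 0.34 (adjusted p = 8.94e-07), the endothelial one 2.04 ± 0.33 (adjusted p = 2.00e-05) and the mural one 2.58 ± 0.45 (adjusted p = 0.000344). Epithelial cells had a difference of -3.32 ± 0.50 (adjusted p = 3.61e-06) and neuronal cells one of -2.10 ± 0.39 (adjusted p = 5.72e-05). These 5 differences were called without each library in turn, the mural one at 3.32 without E15.5. With no library term the mural difference was not called, and with at least 30 cells per sum the neuronal one was -0.77 and not called. The myeloid difference of -1.52 ± 0.57 (adjusted p = 0.0462), from 0, 3 and 6 UMIs, was called in 3 of 10 alternatives, and not without E14.5 (-1.73) or E15.5 (-1.16).

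Read by class, myeloid cells had the most lower calls, 6 of 8, where 12.1% of all genes were called lower. The exceptions were Igf1 at 44.4, 67.0 and 122 CPM and Igfbp4 at 88.8, 214 and 197 CPM, whose differences were not called. The mesenchymal and osteogenic classes each had 4 genes higher and 0 lower, where 13.8% and 9.82% of all genes were called higher and 1.29% and 1.37% lower. Epithelial cells had 2 higher, Igfbp2 and Igfbp5, and 3 lower, Igf1, Igfbp4 and Igfbp7, against 15.6% and 5.12% of all genes. Neuronal cells had 2 higher and 3 lower against 24.8% and 7.92%, and glial cells 2 higher and 2 lower against 4.15% and 2.12%. Endothelial cells had 2 higher and 1 lower against 5.6% and 1.31%. Mural and chondrogenic cells had 2 higher and 0 lower each, against 1.22% and 0.399% of all genes in mural and 8.63% and 0.216% in chondrogenic cells. With DESeq2's size factors in edgeR the split over all genes was 1321 higher to 835 lower in epithelial cells, in place of 1882 to 617, and 216 to 10 in mural cells, in place of 147 to 48.

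Stages were compared without a test, since each is 1 library, and intervals are exact and cover counting error only. Within the mesenchymal lineage all 8 genes were lowest at E13.5. The ligand and most binding proteins differed most, while the receptors differed little. Igf1 stood at 104.5, 326 and 328 CPM, so the difference lay between E13.5 and E14.5, and the E15.5/E13.5 ratio was 3.14 (95% interval 2.63 to 3.78). Igfbp4 stood at 169, 384 and 359.7 CPM (ratio 2.12, 1.84 to 2.46) and Igfbp5 at 204, 405 and 431 CPM (ratio 2.11, 1.85 to 2.41). Igfbp3 stood at 15.04, 51.0 and 39.5 CPM (ratio 2.62, 1.63 to 4.46). In these 4 genes E13.5 was the low library, and the later libraries lay close together. Igfbp7 was the exception, with 7.13, 38.1 and 82.8 CPM from 9, 112 and 384 UMIs. Its E15.5/E13.5 ratio was 11.6 (6.06 to 25.6), and it was the 1 gene of the 8 past 2-fold between E14.5 and E15.5 (ratio 2.17, 1.76 to 2.71).

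The receptors stood at 369, 451 and 478 CPM for Igf1r (E15.5/E13.5 ratio 1.30, 1.17 to 1.44) and at 110.1, 137 and 134 CPM for Igf2r (ratio 1.22, 1.01 to 1.48). Igfbp2 stood at 75.2, 100.3 and 130.3 CPM (ratio 1.73, 1.39 to 2.17). These 3 stayed within 2-fold. In all, 5 of the 8 genes were past 2-fold upward and 0 downward from E13.5 to E15.5, where 10.6% of genes were past it upward and 5.77% downward. The median log2 ratio was 1.08 for the 8 genes and -0.03 for all genes. From E13.5 to E14.5, 4 were past it upward and 0 downward, against 9.04% and 3.54% of all genes. From E14.5 to E15.5 Igfbp7 alone was past it upward and none downward, against 1.08% and 1.86%. With classes taken from clusters in place of the gate, 2 of the 8 were past 2-fold, with log2 ratios of 1.09 for Igf1, 2.80 for Igfbp7, 0.97 for Igfbp3, 0.79 for Igfbp4 and 0.77 for Igfbp5. The share of all genes was not counted with clusters. With 1 marker more in the gate the log2 ratio of Igf1 was 2.09. The lineage also differed in its makeup, with 121 chondrogenic of 408 cells at E13.5 and 49 of 1461 at E15.5. Its clusters differed between libraries as well. The mostly mesenchymal cluster with the most E13.5 cells held 404, 191 and 202 cells in order of stage, while clusters of 0, 111 and 324, of 1, 150 and 197 and of 7, 134 and 288 cells came almost wholly from the later libraries. In the mesenchymal class alone 4 of the 8 were past 2-fold upward, with a median log2 ratio of 0.89, against -0.02 for all genes. The share of all genes past 2-fold was not counted in that class. There Igf1 had a ratio of 2.12 (1.76 to 2.59), and Igfbp4, with 1.62 (1.38 to 1.92), was no longer past it. Neuronal markers in the lineage differed too. They stood at 831, 494 and 502 CPM in chondrogenic and at 266, 344 and 234 CPM in mesenchymal sums, and their part in the stage ratios was not tested.

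**Figure D3:**
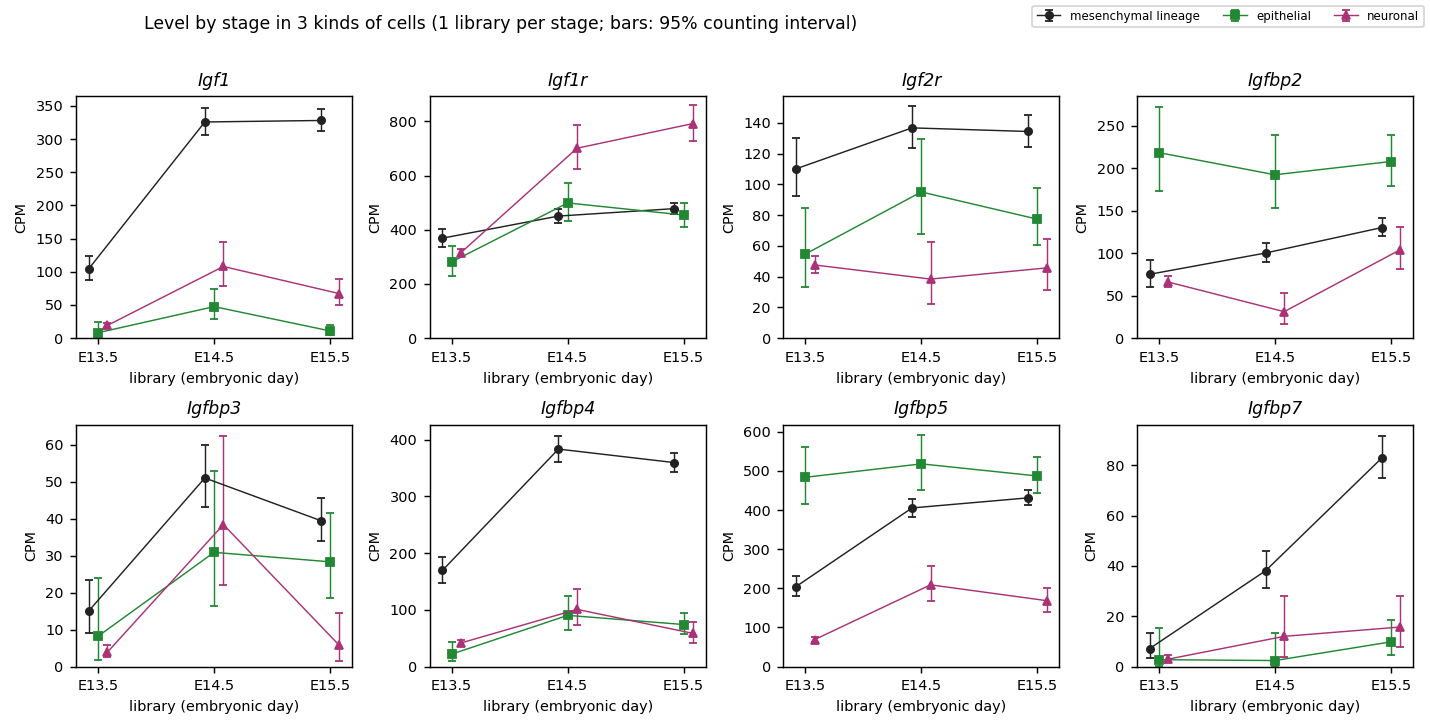
Level in CPM (vertical axes) of each gene by stage (horizontal axes) in the mesenchymal lineage, epithelial and neuronal cells, with 95% counting intervals as bars. In the lineage Igf1 went from 104.5 to 328 CPM, while epithelial Igfbp2 and Igfbp5 kept near 208 and 487 CPM.

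In epithelium Igfbp2 and Igfbp5 stayed near the same level. Their E15.5/E13.5 ratios were 0.95 (0.73 to 1.25) and 1.01 (0.84 to 1.21). The mostly epithelial clusters shifted between libraries, with 132, 105 and 142 cells in the largest, 21, 53 and 174 in the next and 0, 11 and 16 in the smallest. From E13.5 to E15.5 Igfbp3 and Igfbp4 were past 2-fold upward and none downward, of 7 genes with a mean of at least 5 CPM, where 20% of genes were past it upward and 8.43% downward. From E13.5 to E14.5 3 were past it upward and 0 downward, against 18.8% and 9.12%. From E14.5 to E15.5 0 were past it upward and 1, Igf1, downward, against 8.11% and 6.75%. Igfbp4 rested on 8 and 68 UMIs (ratio 3.39, 1.63 to 8.17) and Igfbp3 on 3 and 26 UMIs (ratio 3.46, 1.06 to 17.8). Epithelial Igf1r stood at 1.61 times its E13.5 level (1.30 to 2.02). Epithelial Igf1 was high in the E14.5 library, where it was 5.80 times the E13.5 level (1.72 to 30.5). Its lower level at E15.5 rests on 10 UMIs against 20, and with classes from clusters that direction turned, to a log2 ratio of 0.10. In the epithelial sums 3, 5 and 5 of 10 pituitary markers were detected, at 16.4, 104.6 and 539 CPM together, and 5, 8 and 8 of 10 mural markers, at 95.6, 202 and 423 CPM. Both were lowest at E13.5, and their part in the epithelial ratios was not tested. In neuronal cells Igf1r at E15.5 was 2.51 times the E13.5 level (2.28 to 2.76) and Igfbp5 2.45 times. These ratios compare cells of different clusters. In a clustering of all cells 6 clusters were mostly neuronal, of which 5 held 177 to 668 cells of E13.5 and at most 13 of either later library, and the other one held 38, 119 and 148 cells.

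Shares of lineage cells with at least 1 UMI of a gene were taken after each cell was thinned to 1500 UMIs and the 119, 309 and 433 shallower cells were left out. For Igf1 the share was 11.4% (95% Clopper-Pearson interval 7.99% to 15.7%) in the first library. It was 28.5% (25.0% to 32.1%) in the second and 29.1% (26.3% to 32.0%) in the last. Unthinned the shares were 15.4%, 35.2% and 36.3%. In epithelial cells, which had the lowest mean Igf1 level, 0 of 93 thinned cells had a UMI at E13.5. This allows a share of cells with a UMI at this depth of up to 3.23%, the share that 3 of the 93 cells would give. It sets no limit on cells expressing the gene. Unthinned the share was 1.79%. After thinning 6.67% and 1.60% had one later. Lineage cells had median depths of 2336, 2108 and 2340 UMIs, and epithelial cells of 2388, 2412 and 2287 UMIs. Igf1 UMIs were thus found in a minority of lineage cells in each library. For Igf1r the shares were 39.8%, 44.3% and 45.3%, and for Igfbp4 21.5%, 40.9% and 40.7%. For Igfbp7 they were 0.346%, 6.92% and 10.7%, against 1.08%, 0 and 1.07% of epithelial cells. At E13.5 these shares are 1 of 289 lineage and 1 of 93 epithelial cells, while the CPM level was higher in the lineage and so were the unthinned shares, 1.72% against 0.893%. No order is read from them. Igfbp5 stood at 18.0%, 28.9% and 27.2% and Igfbp2 at 9.34%, 11.7% and 13.3%. Shares depend on the depth chosen. Thinned to 1000 UMIs, 28 of 48 lay outside their interval at 1500 UMIs, with Igf1 at 7.56%, 20.7% and 19.3% and Igfbp4 at 14.8%, 31.3% and 30.5%. E13.5 was the low library for both genes at either depth.

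Within the lineage, cells with UMIs of at least 3 of 12 genes of the G2 and M phases were compared with cells without any. Cycling cells had less Igf1 in each library. It stood at 42.7 against 162 CPM at E13.5, 232 against 408 CPM at E14.5 and 255 against 362 CPM at E15.5. The ratios were 0.26 (0.15 to 0.43), 0.57 (0.49 to 0.67) and 0.71 (0.62 to 0.80) in this order. Igfbp4 had ratios of 0.73 (0.53 to 0.99), 0.65 (0.56 to 0.75) and 0.63 (0.55 to 0.71), and Igfbp5 of 0.65 (0.49 to 0.87), 0.78 (0.68 to 0.90) and 0.83 (0.74 to 0.93). These intervals all lay below 1. Igf1r had 0.85 (0.69 to 1.05), 1.01 (0.89 to 1.14) and 1.07 (0.97 to 1.18), each interval holding 1, though its log2 ratio at E13.5 went from -0.23 to -0.67 after thinning. Cycling cells were deeper, with median UMIs of 3692, 3470 and 3730 against 1965, 1825 and 2038, and after thinning to 1500 UMIs the log2 ratios for Igf1 were -1.98, -0.94 and -0.74. In the mesenchymal class alone the Igf1 ratios were 0.34, 0.60 and 0.76. There Igfbp5 had 0.34, 1.08 and 0.84, and the E14.5 interval of 0.90 to 1.29 held 1. The E13.5 interval of Igfbp4 in that class held 1 as well (0.59 to 1.25), and its Igf1r ratio at E13.5 was 0.48 (0.33 to 0.68).

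Along the front to back axis of the shelf, lineage cells with UMIs of the posterior genes Meox2, Barx1 or Tbx22 and of no anterior gene were compared with cells that had the reverse for Shox2, Inhba and Fgf10. Igfbp3 differed most at E15.5, where it stood at 103.5 CPM in posterior and 30.8 CPM in anterior cells. The ratio was 3.36 (2.28 to 4.95), and 3.23 (2.14 to 4.89) in the mesenchymal class alone. At E14.5 it was 0.85 (0.49 to 1.45), so the difference was seen in 1 of these libraries only, and E13.5 held too few UMIs. Igf1 stood at 200.3 against 68.4 CPM at E13.5, a ratio of 2.93 (1.55 to 6.00) whose log2 value of 1.54 was 0.35 after thinning. Later its ratios were 1.16 (0.94 to 1.41) and 1.21 (1.03 to 1.42). After thinning the direction turned at E14.5, from a log2 value of 0.21 to -0.35, and was kept at E15.5, with 0.27 and 0.53. In the mesenchymal class alone the Igf1 ratios were 2.63 (1.39 to 5.40), 1.43 (1.14 to 1.78) and 1.28 (1.07 to 1.52). Igfbp2 had 1.53 (1.20 to 1.93) at E15.5 and 0.80 (0.53 to 1.18) at E14.5, and its log2 ratio at E15.5 went from 0.61 to 0.23 after thinning. The receptors had ratios between 0.83 and 1.26 in all 3 libraries, but not after thinning. The log2 ratio of Igf2r at E14.5 then turned from 0.33 to -0.69, and that of Igf1r at E13.5 went from -0.20 to -0.73. In the mesenchymal class alone Igf1r had 0.72 (0.57 to 0.92) at E14.5, an interval below 1, and Igf2r had 0.77 (0.31 to 1.97) at E13.5. The lineage interval of Igf1r at E14.5 lay just below 1 too (0.683 to 0.9994). Igfbp5 in the lineage had 1.17 (0.73 to 1.90), 0.74 (0.60 to 0.91) and 0.98 (0.84 to 1.14). In the mesenchymal class its E14.5 interval held 1 (0.61 to 1.04).

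**Figure D4:**
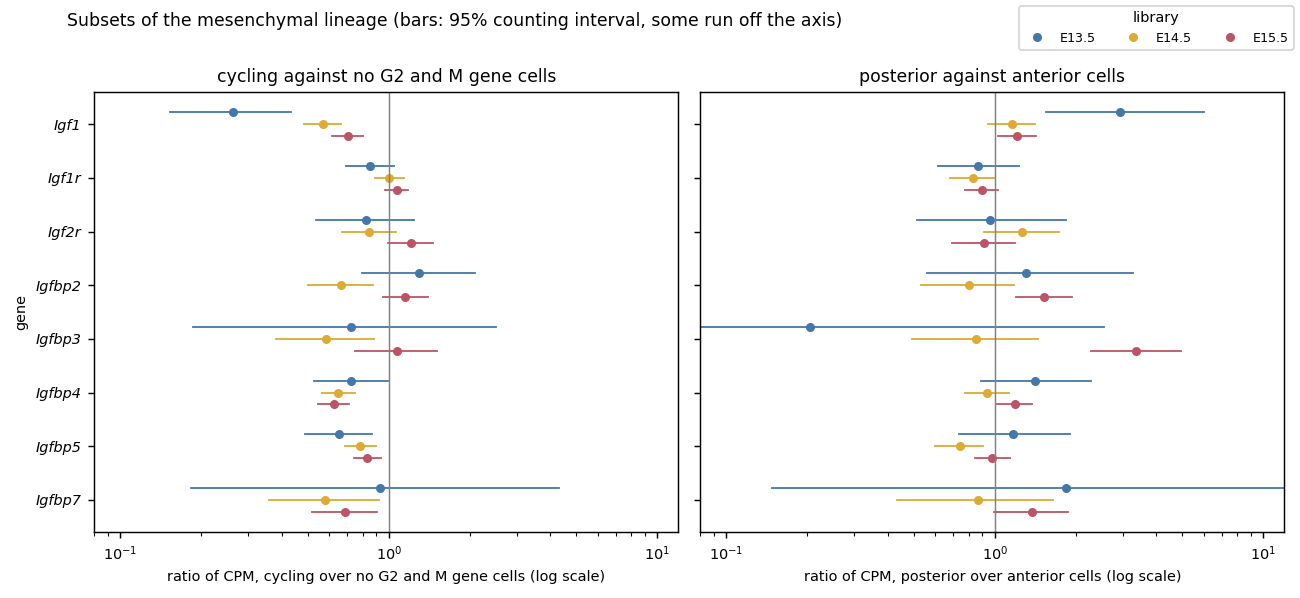
Ratio of CPM (log axis) within the mesenchymal lineage, of cycling cells to cells without a G2 or M gene and of posterior to anterior cells, for each gene and stage with 95% counting intervals. Igf1 lay below 1 in cycling cells in each library (0.26, 0.57 and 0.71), and Igfbp3 was at 3.36 in posterior cells at E15.5.

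Other genes of the pathway came from a list of 27, of which 21 had enough UMIs for the class test. In mesenchymal cells 10 were higher and 0 lower, where 13.8% of genes were called higher. In osteogenic cells 8 and in chondrogenic cells 6 were higher, with 0 lower (9.82% and 8.63%). In neuronal cells 5 were higher and 3 lower (24.8% and 7.92%), and in myeloid cells 0 were higher and 7 lower (13.1% and 12.1%). The list's median difference was 0.52 in mesenchymal and -0.60 in myeloid cells, beside 0.25 and -0.14 for all genes.

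Igf2, the other ligand, stood at 344, 774 and 745 CPM in the mesenchymal lineage and at 352.5, 399 and 264 CPM in epithelium. It was higher in chondrogenic cells by 1.45 ± 0.23 (adjusted p = 2.36e-05) and lower in myeloid cells, with a difference of -2.90 ± 0.43 (adjusted p = 1.52e-06). It was also called higher in mural (1.27), osteogenic (1.27), mesenchymal (0.97) and endothelial cells (0.91) and lower in glial (-2.15) and neuronal cells (-1.11). Like Igf1 it was lowest in the lineage at E13.5. Ghr, the growth hormone receptor, stood at 196, 511 and 692 CPM in the lineage. It was higher in mesenchymal (1.73 ± 0.17, adjusted p = 6.81e-10), osteogenic (1.72 ± 0.18, adjusted p = 8.06e-09) and chondrogenic cells (1.25 ± 0.18, adjusted p = 6.15e-06). In myeloid cells it was lower, with a difference of -3.04 ± 0.36 (adjusted p = 2.24e-08). Pappa2, a pappalysin that cuts IGF binding proteins, was highest in osteogenic cells, with 59.7, 112 and 168 CPM. Its difference there was 3.73 ± 0.38 (adjusted p = 8.81e-09), with 2.77 ± 0.39 in mesenchymal (adjusted p = 1.69e-06) and 1.86 ± 0.56 in chondrogenic cells (adjusted p = 0.0299). In epithelial cells it rested on 0, 5 and 5 UMIs.

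Grb10, an adaptor that dampens insulin and IGF1 receptor signalling, stood at 1105, 1065 and 1209 CPM in the lineage, and its highest difference was 1.27 ± 0.19 in osteogenic cells (adjusted p = 4.97e-06). Its relative Grb14 was called higher in neuronal (1.31 ± 0.41, adjusted p = 0.0117) and mesenchymal cells (1.19 ± 0.39, adjusted p = 0.0344). Insr, the insulin receptor, stood at 65.7, 89.8 and 93.2 CPM in the lineage and was higher in endothelial cells by 0.84 ± 0.26 (adjusted p = 0.0415) and in neuronal cells by 0.57 ± 0.20 (adjusted p = 0.0221). In myeloid cells it was lower, with a difference of -1.24 ± 0.36 (adjusted p = 0.00878). Igfbpl1, a protein with a domain like that of the IGF binding proteins, stood at 257, 19.2 and 22.8 CPM in neuronal cells and was higher there by 4.85 ± 0.38 (adjusted p = 4.39e-12). Igfbp6, whose product prefers IGF2, was too low for the test, with 3, 11 and 14 UMIs in the lineage. Between E13.5 and E15.5 in the lineage 6 of 21 genes of the list were past 2-fold upward and 2 downward, against 10.6% and 5.77% of all genes. The median log2 ratio was 0.53 for the list and -0.03 for all genes. Those upward included Pappa2 (ratio 6.26, 4.17 to 9.86), Ghr (3.54, 3.11 to 4.04) and Igf2 (2.17, 1.96 to 2.40). The 2 past it downward were Igfbpl1, with 31, 1 and 1 UMIs, and Igf2bp1 (0.48, 0.40 to 0.57), an Igf2 mRNA binding protein named after its values were seen. Igfbpl1 reached 52.4 CPM in chondrogenic cells, a larger part of the lineage at E13.5, and 7.14 CPM in mesenchymal cells. The part of makeup and of neuronal transcripts in the lineage ratio of Igfbpl1 was not tested.

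Genes most like each member were ranked by Pearson correlation of log2(CPM + 5) over the 27 sums, among 10003 genes. These sums share libraries, and the values are descriptions. For Igf1 they were Bgn, which encodes the matrix proteoglycan biglycan (0.80), Igfbp4 (0.78) and Dchs2, a cadherin (0.76). For Igfbp4 they were Colec12 (0.88), Bgn (0.86) and Stk3 (0.84), so Bgn stood on both lists. For Igf1r, Tshz2 (0.84) and Gtf2ird1 (0.82) were among the closest, and Igf2r was closest to Anapc1 (0.86), Airn and Cald1, the caldesmon gene (0.84). Igfbp7 was closest to the integrin gene Itga1 (0.89), Adam12 (0.87) and Adam19 (0.82). For Igfbp2 the leading genes were Copg2 (0.80), Pde7a (0.79) and Dab2ip (0.78). For Igfbp3 they were Arhgap29 (0.81), Cgnl1 (0.77) and Rftn2 (0.77), and for Igfbp5 Ptpn13 (0.86), Fat1 (0.84) and Ryk (0.84).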

How the data were processed

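Single-cell libraries of palatal shelves, 1 for each of the 3 stages, were used as the authors deposited them, as raw UMI counts per gene and cell. Cell Ranger 6.1.2 and the mm10 build are named per the submitters' processing notes. Whether introns or strand entered the counting is not given in the sources used here.

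From these counts, cells with at least 500 genes and at most 20% mitochondrial UMIs were kept. Scrublet's own threshold called 0, 3 and 2 doublets, so the cells of highest score were left out at 0.8% per 1000 barcodes (109, 25 and 56 cells). A cell took the class with the most of its 10 markers detected, at least 2 and more than any other class. The mesenchymal lineage entered as 1 class, with the largest count of its 3 lists. Within it, osteogenic cells needed at least 2 of their markers and chondrogenic cells at least 3, each more than of the other list. Their count of mesenchymal markers did not enter this split, and the remaining lineage cells were mesenchymal. These minimums were set from the marker counts.

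Class sums of at least 10 cells were tested with edgeR 4.0.16 (TMM, quasi-likelihood, library as a term, genes with at least 100 UMIs, 16 residual degrees of freedom), with Benjamini-Hochberg adjustment. DESeq2 1.42.0 was an alternative, and the script was tested on simulated data. Stage ratios added 1 CPM on the log2 scale, while printed ratios and intervals come from the counts themselves. Python 3.11.15, scanpy 1.11.5, scipy 1.17.1 and R 4.3.3 were used. Gene coordinates are those of GENCODE M21 on GRCm38.

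The genes named are the 8 members, Igf2, Insr, Igfbp6 and the 5 other genes of the pathway list with the largest range between class means, and for each member the 3 genes most like it. Of these, 1 gene is not reported here. Igf2bp1 was named outside this rule, after its values were seen. Members, markers and lists were chosen with earlier results of these data known. Alternatives concerned the gate, doublets, cells, clusters, scaling, filters, tool, library term, each library in turn, pseudocount and thinning.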

Additional observations from a re-analysis of the deposited data

How the results depend on the processing

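Of 72 gene and class pairs 35 were called. The count was 23 of 48 with at least 1000 genes per cell, which leaves no endothelial, myeloid or mural sums, and 16 of 32 with at least 30 cells per sum. Leaving out a library gave 23 to 35, lowest without E15.5, where muscle entered as a 10th class and the 23 are of 80 pairs. It was 29 of 56 with 1 marker more, 34 with no doublets left out, 27 of 64 with classes from clusters, 35 with DESeq2's size factors, 30 with DESeq2's Wald test, 40 with no filter and 24 with no library term. The share over all pairs was taken for the main fit only, but calls over all genes changed too. In mesenchymal cells 1660 of 12043 genes were higher in the main fit and 967 with no library term. There 907 of 11499 were higher with at least 1000 genes per cell, 1053 of 10609 without E15.5 and 1726 of 12261 with clusters. In neuronal cells the Igfbp2 difference turned to -0.0011 with at least 1000 genes per cell, -0.49 with clusters and -0.72 with at least 30 cells per sum. With at least 30 cells per sum, which keeps 4 classes, the Igfbp7 difference gained a call in chondrogenic (-0.36 to 1.28) and mesenchymal cells (0.17 to 1.87). For stages in the lineage, 5 of 8 genes were past 2-fold, 2 with clusters and 4 to 5 otherwise. The share of all genes past it was counted for the main gate only, so these counts have no share beside them. With clusters the epithelial log2 ratios of E15.5 to E14.5 turned to 0.10 for Igf1 and -0.015 for Igfbp7. The cause was not tested. Subsets in the mesenchymal class alone were added after seeing the data, and 5 of 48 ratios moved beyond their counting interval. With cells thinned to 1500 UMIs 15 of the 48 moved.

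No paired analysis was possible because each stage is 1 library and its number only names it. This concerns the stages, as the class test holds library as a term. With 10 to 21 mural and 10 to 66 endothelial cells per library, 1 UMI is worth up to 40.4 CPM in the mural sums, so small differences there were not detectable at this depth.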

Other observations

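Classes that did not reach 10 cells in every library were not in the class test above and are given as values. Muscle was tested in the fit without E15.5 and in the one with classes from clusters. Muscle cells numbered 11 at E13.5 and 19 at E14.5. Igfbp2 stood at 236 and 69.8 CPM in them, from 8 and 5 UMIs, and Igf1r at 325 and 642 CPM, from 11 and 46 UMIs. The 193 neural progenitor cells of E13.5 had Igf1r at 258 CPM and Igfbp7 at 0 UMIs, below the 5.57 CPM that 3 UMIs would give. Cells that entered no class had Igf1 at 53.9, 215 and 199.8 CPM in order of stage, the low library being E13.5 as in the mesenchymal lineage.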
